A study of Mus musculus with 8 samples.

Results

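These 9 genes write, copy or remove DNA methylation in mouse cells, and their mRNA levels are described here in anterior neural progenitor cells (AntNPC). They are the methyltransferase genes Dnmt1, Dnmt3a and Dnmt3b, the catalytically inactive partner Dnmt3l, the maintenance cofactor Uhrf1, the dioxygenase genes Tet1, Tet2 and Tet3, and the DNA glycosylase gene Tdg. They were chosen by symbol and make up 9 of the 46406 entries of the expression table. Of these, 8 matched by exact symbol, and Tdg was found by its gene identifier (ENSMUSG00000034674) under a symbol that joins it with Gm5806, so reads shared with that copy make its level uncertain.

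Poly(A) RNA was sequenced from AntNPC differentiated from mouse E14 embryonic stem cells without serum in N2B27, under bFgf at 10 ng/ml for 3 days and the WNT inhibitor Xav939 at 5 µM between days 2 and 5. The null cells lack PE Lhx5(-109), a poised enhancer named for the LIM homeobox gene Lhx5, which was cut out by CRISPR-Cas9 using guide RNA pairs. They come from 2 clonal lines, null clone 1 and null clone 2, with 2 libraries each. The wild-type (WT) cells are undeleted E14 cells, with 4 libraries. Null lines also passed through transfection, puromycin selection and growth from single cells, and the WT libraries carry no clone label, so the deletion and clonal derivation cannot be told apart. The labels do not say whether libraries of one line came from separate differentiations, so p-values measure the spread between these libraries, which may be technical.

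DNA methylation is laid down on CpG sites by the de novo enzymes Dnmt3a and Dnmt3b, whose activity Dnmt3l stimulates in early embryonic and germ cells. At the replication fork Uhrf1 binds hemimethylated DNA and brings in Dnmt1, which copies the mark to the daughter strand. Tet enzymes oxidise 5-methylcytosine, and Tdg excises the oxidised bases so that base excision repair can restore cytosine. Dnmt3b and Dnmt3l are high in pluripotent epiblast-stage cells and are turned down as neural fate is taken up, while Dnmt3a and Tet3 stay on in the neural lineage.

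Expression was given as FPKM, which scales fragments by gene length and mapped total, so levels can be compared between genes. The FPKM sum of a library lay between 518491 and 528726, with 13983 to 14338 genes at 1 FPKM or more. Lhx5, the check of the deletion, had 1.24 and 0.854 FPKM in null clone 1 and 1.90 and 1.26 FPKM in null clone 2, against 15.0 to 17.5 FPKM in the 4 WT libraries. Replicate 2 of null clone 1 stood apart from the other 7 libraries. It held 250.2 FPKM of the non-polyadenylated RNA Rn7sk, against 8.05 to 28.4 FPKM elsewhere, and its median log2(FPKM + 1) difference from replicate 1 of the same clone was 0.00 for genes with a longest transcript under 2000 bases and -0.25 for genes of 8000 bases or more. The same medians in null clone 2 were -0.01 and 0.00. Results that rest on that library are therefore given with and without it. All 7 neural progenitor markers looked up exceeded 1 FPKM in at least 1 library. Their sum was 267.2 to 292.7 FPKM in null clone 1, 337.1 to 363.8 in null clone 2 and 326.6 to 350.4 in WT. Of the 7, by limma adjusted p under 0.05, 0 rose and 4 fell in null clone 1 (Sox1, Nes, Cdh2 and Sox21). In null clone 2 the same 4 rose and 1 fell, Pax6, at 17.8 and 11.1 FPKM against 36.2 to 39.8 in WT. Of 4 tested neuron markers, 1 rose and 0 fell in null clone 1, and 0 rose and 2 fell in null clone 2. Of all tested genes, 4.16% rose and 11.4% fell in null clone 1, and 7.06% rose and 6.96% fell in null clone 2. Not all of these calls held with 1 library left out. In no such run did all 4 neural progenitor rises in null clone 2 hold. Without replicate 2 of null clone 1, the 4 falls in that clone did not all hold. The neuron rise in null clone 1 was lost without any 1 null library or WT replicate 1, 3 or 4. The 2 neuron falls in null clone 2 did not hold in every such run. The 5 mesoderm and 5 endoderm markers were under 1 FPKM in every library.

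**Figure D1:**
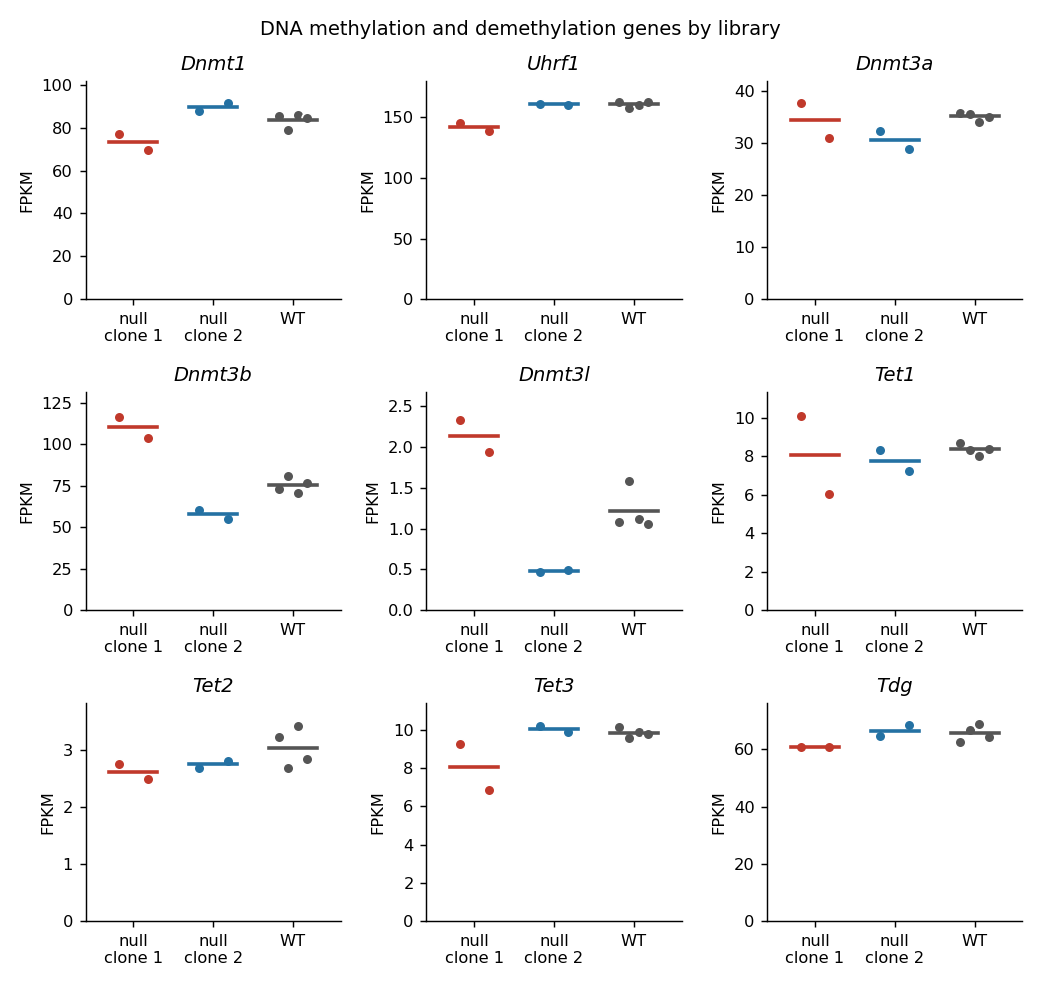
FPKM of the 9 genes (vertical axis, linear and starting at 0) in each library of null clone 1, null clone 2 and WT; points are libraries and bars are group means. Dnmt3b and Dnmt3l sit above every WT library in null clone 1 and below every WT library in null clone 2, while the Tet genes and Tdg lie closer to WT.

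Of the 9 genes, Dnmt3b and Dnmt3l differed most between the null clones. Dnmt3b, the main de novo methyltransferase of the epiblast, had 116.5 and 104.0 FPKM in null clone 1 and 60.5 and 55.1 FPKM in null clone 2, against 73.1, 81.1, 70.5 and 76.5 FPKM in WT. Both libraries of null clone 1 lay above the highest WT library and both libraries of null clone 2 below the lowest. Its mean was 1.46 times the WT mean in null clone 1 and 0.767 times in null clone 2. On the log2(FPKM + 1) scale it rose by 0.54 ± 0.07 (SE) in null clone 1 (limma adjusted p = 0.00375). In null clone 2 it fell by 0.38 ± 0.07 (limma adjusted p = 0.0143). The difference of null clone 2 from null clone 1 was -0.92 ± 0.08 (limma adjusted p = 0.000235). Among the 9 genes Dnmt3b had the largest F statistic over the 3 lines, 104th of the 14521 genes tested.

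Dnmt3l, which has no catalytic activity of its own and stimulates Dnmt3a and Dnmt3b, was far lower in level but ordered the libraries in the same way. It had 2.34 and 1.94 FPKM in null clone 1 and 0.465 and 0.495 FPKM in null clone 2, against 1.08, 1.59, 1.12 and 1.06 FPKM in WT. The groups did not overlap, and WT replicate 2 stood above the other WT libraries. The mean of null clone 1 was 1.76 times that of WT and the mean of null clone 2 was 0.396 times that of WT. The log2(FPKM + 1) change, which understates changes of so low a gene, was 0.51 ± 0.12 in null clone 1 (limma adjusted p = 0.0257) and -0.57 ± 0.12 in null clone 2 (limma adjusted p = 0.0206). The difference of null clone 2 from null clone 1 was -1.08 ± 0.14 (limma adjusted p = 0.00081).

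The calls between the clones held for Dnmt3b and Dnmt3l under every alternative run, and the Dnmt3b call in null clone 1 did too. The Dnmt3b call in null clone 2 was lost without its replicate 2 (limma adjusted p = 0.169). The Dnmt3l call in null clone 1 was lost without either of its own libraries (limma adjusted p = 0.0951 without replicate 1 and 0.0793 without replicate 2) or without WT replicate 1, 3 or 4 (limma adjusted p = 0.0659, 0.069 and 0.0697), and that in null clone 2 without its replicate 1 (0.0643) or replicate 2 (0.161).

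The 300-base RefSeq promoter windows (GRCm38.p6, from 250 bases before to 50 after an annotated start) of these 2 genes are printed because they differ in the CpG sites that the enzymes act on, although the transcripts shifted together. Capitals mark CpG. Where RefSeq lists several starts, the window with the most CpG is shown, and gene-level FPKM do not tell which start was used.
Dnmt3b, chr2:153649199-153649498, plus strand: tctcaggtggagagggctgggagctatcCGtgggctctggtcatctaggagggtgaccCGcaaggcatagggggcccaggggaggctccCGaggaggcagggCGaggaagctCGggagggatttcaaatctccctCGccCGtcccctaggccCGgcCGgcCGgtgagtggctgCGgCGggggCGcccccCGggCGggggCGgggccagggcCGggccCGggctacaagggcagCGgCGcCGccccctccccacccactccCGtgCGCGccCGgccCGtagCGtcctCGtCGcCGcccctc
Dnmt3l, chr10:78042037-78042336, plus strand: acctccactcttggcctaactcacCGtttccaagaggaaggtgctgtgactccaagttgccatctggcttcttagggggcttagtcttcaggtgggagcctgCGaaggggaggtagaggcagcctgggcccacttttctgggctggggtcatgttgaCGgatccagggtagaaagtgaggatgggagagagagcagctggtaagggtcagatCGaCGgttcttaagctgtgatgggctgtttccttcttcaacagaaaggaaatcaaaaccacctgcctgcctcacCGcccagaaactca
In GENCODE M21 (GRCm38) the Dnmt3b gene spans chr2:153649450-153687730 and the Dnmt3l gene chr10:78041947-78063622. The Dnmt3b window holds 30 CpG at 76.0% GC, and 89.4% of the 32851 RefSeq windows hold as few or fewer. The Dnmt3l window holds 6 CpG at 54.7% GC, against a median of 7 over all windows. The other 2 Dnmt3l starts have 4 and 3 CpG.

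The list called naive pluripotency holds the core pluripotency factor genes Pou5f1 and Nanog, so its calls are not by themselves changes of a naive state. Pou5f1 and Nanog were placed like Dnmt3b and Dnmt3l, highest in null clone 1 and lowest in null clone 2. The others of the list were not all so placed. The octamer-binding factor gene Pou5f1 had 52.4 and 48.5 FPKM in null clone 1 and 14.3 and 10.9 FPKM in null clone 2, against 18.7 to 30.5 FPKM in WT. It rose by 1.15 in null clone 1 (limma adjusted p = 0.0199) and missed the threshold in null clone 2, at -0.78 (limma adjusted p = 0.0611). Nanog, another core pluripotency factor gene, had 8.71 and 7.48 FPKM in null clone 1 and 2.31 and 1.73 FPKM in null clone 2, against 3.42 to 5.57 FPKM in WT, and passed in both (limma adjusted p = 0.0162 and 0.0154). Of the 8 naive pluripotency markers 3 were tested, of which 2 rose and 0 fell in null clone 1 (Pou5f1 and Nanog), and 0 rose and 2 fell in null clone 2 (Nanog and Dppa5a), where 4.16% and 11.4% of all tested genes rose and fell in null clone 1 and 7.06% and 6.96% in null clone 2. Without either library of null clone 1, 0 of them rose in that clone, without WT replicate 1 or 4, 1 rose, and without replicate 2 of null clone 2, 1 fell in null clone 2. The sum over all 8 was 64.5 to 69.3 FPKM in null clone 1, 16.3 to 21.4 in null clone 2 and 29.5 to 46.1 in WT, most of it from Pou5f1. Dppa5a, a marker of early embryonic cells, had 6.61 and 6.56 FPKM in null clone 1 and 2.83 and 1.56 FPKM in null clone 2, against 5.09 to 7.26 FPKM in WT, so that null clone 1 lay within the WT range. Zfp42, which was not tested, averaged 1.00 FPKM in null clone 1, 0.499 in null clone 2 and 1.25 in WT. The other 4 (Esrrb, Klf4, Tfcp2l1 and Tbx3) were under 1 FPKM in every library, and their means were lowest in null clone 1 and highest in null clone 2.

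Some epithelial genes were also highest in null clone 1. Of 5 tested markers of surface ectoderm and epithelium, 3 rose and 0 fell in null clone 1 (Cdh1, Epcam and Cldn6). Of all tested genes, 4.16% rose and 11.4% fell there. In null clone 2, 0 passed by limma and 2 had an unadjusted p under 0.05, as did 30.8% of all genes. Cdh1, the gene of E-cadherin, had 24.6 and 19.8 FPKM in null clone 1 and 5.04 and 3.96 FPKM in null clone 2, against 5.87 to 9.90 FPKM in WT. Of the keratin genes, Krt8 had its highest library in null clone 2 (10.15 FPKM) and Krt18 in WT (23.82 FPKM), and neither passed in null clone 1 (limma adjusted p = 0.109 and 0.546). Tfap2c, under 1 FPKM in every library, had its lowest mean in null clone 1 (0.533 FPKM, with 0.811 in null clone 2 and 0.767 in WT). The 6 markers summed to 70.7 to 81.7 FPKM in null clone 1, 29.7 to 42.4 in null clone 2 and 36.5 to 53.0 in WT.

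Of 6 tested primed epiblast markers, 2 rose (Fgf5 and Dppa4) and 1 fell (Lin28b) in null clone 1. In null clone 2, 0 rose and 2 fell (Otx2 and Pou3f1). Of all tested genes, 4.16% rose and 11.4% fell in null clone 1, and 7.06% rose and 6.96% fell in null clone 2. WT cells averaged 12.3 FPKM of Pou3f1, 38.2 of Sfrp2 and 28.25 of Lin28b. Calls of such markers are therefore not by themselves epiblast changes. Fgf5, a growth factor gene of the epiblast, had 5.23 and 4.39 FPKM in null clone 1 and 1.38 and 1.36 FPKM in null clone 2, against 1.37 to 2.90 FPKM in WT (log2 change 1.00 in null clone 1, limma adjusted p = 0.0116). Dppa4 had 7.10 and 5.69 FPKM in null clone 1 and 3.23 and 2.16 FPKM in null clone 2, against 2.39 to 2.98 FPKM in WT (1.02 in null clone 1, limma adjusted p = 0.0043). Without replicate 2 of null clone 1, 1 rose and 0 fell in that clone. The fall of Lin28b (limma adjusted p = 0.0431) was also missing, so that 0 fell, with no filter, rescaled libraries or plain moderation (limma without its trend and robust options) and without either library of null clone 2 or WT replicate 1, 3 or 4. The 2 that fell in null clone 2 were 0 without its replicate 2, and 1 with no filter, with plain moderation or without any 1 of the other libraries. The 6 summed to 276.5 to 305.3 FPKM in null clone 1 and 240.2 to 251.1 in null clone 2, against 276.2 to 307.8 in WT, a sum dominated by Otx2, which averaged 210.5 FPKM in null clone 1, 166.0 in null clone 2 and 206.5 in WT. The part of pluripotent, epiblast or epithelial cells in the Dnmt3b and Dnmt3l values was not tested. In bulk RNA, fewer cells of a type and less RNA per cell cannot be told apart.

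**Figure D2:**
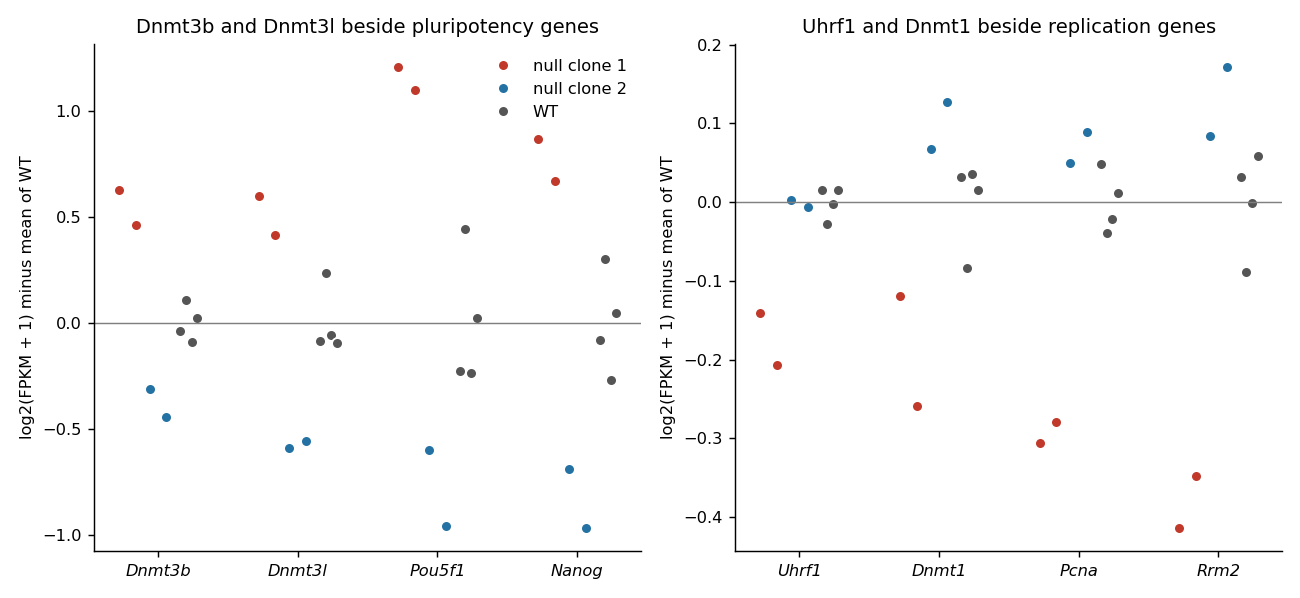
Library values of log2(FPKM + 1) minus the WT mean (vertical axis) for Dnmt3b and Dnmt3l beside Pou5f1 and Nanog (left), and for Uhrf1 and Dnmt1 beside the replication genes Pcna and Rrm2 (right); points are libraries. Null clone 1 lies above WT for the 4 genes on the left and below WT for the 4 on the right, and null clone 2 lies below WT on the left only.

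Dnmt3a, the de novo enzyme kept in neural cells, passed in neither clone against WT. It had 37.7 and 31.0 FPKM in null clone 1 and 32.3 and 28.9 FPKM in null clone 2, against 35.8, 35.5, 34.1 and 35.1 FPKM in WT. Null clone 1 straddled the narrow WT range, and both libraries of null clone 2 fell below it. The log2 change was -0.04 (95% interval -0.21 to 0.14, limma adjusted p = 0.77) in null clone 1, or 0.009 with rescaled libraries, and -0.20 (-0.37 to -0.02, limma adjusted p = 0.122) in null clone 2. The null clone 2 value passed when either library of null clone 1 was left out of the shared fit (limma adjusted p = 0.0437 without replicate 1 and 0.0431 without replicate 2). Null clone 2 differed from null clone 1 by -0.16 (limma adjusted p = 0.188), short of the threshold. Without replicate 2 of null clone 1, the library in which long transcripts read low, Dnmt3a in null clone 1 was at 0.099 against WT, and null clone 2 lay below null clone 1 by a called -0.295 (limma adjusted p = 0.022), the direction of Dnmt3b.

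The Dnmt3b to Dnmt3a ratio within a library does not depend on scaling between libraries, and its values in the 3 lines did not overlap. The difference of replicate 2 from replicate 1 of null clone 1 does not cancel in this ratio. That difference was -0.273 for Dnmt3a (9685 bases) and -0.163 for Dnmt3b (4320 bases) on the log2(FPKM + 1) scale. The ratio was 3.09 and 3.35 in null clone 1 and 1.87 and 1.91 in null clone 2, against 2.04, 2.28, 2.07 and 2.18 in WT. The mean log2 ratio lay 0.59 above WT in null clone 1 and was -0.18 relative to WT in null clone 2, values given with no test. With both clones pooled, the null libraries were 0.20 above WT (exact two-sided permutation p = 0.429 over 70 arrangements, 0.643 adjusted over the 3 ratios examined, where the smallest p possible is 0.0286).

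Dnmt1 and Uhrf1, the pair that maintains methylation through replication, were lower in null clone 1. Uhrf1, the reader of hemimethylated DNA, had 145.7 and 139.1 FPKM in null clone 1 and 161.1 and 160.1 FPKM in null clone 2, against 162.4, 157.7, 160.5 and 162.4 FPKM in WT. Null clone 1 lay below every WT library and null clone 2 within the WT range. It fell by 0.17 ± 0.03 on the log2 scale in null clone 1 (limma adjusted p = 0.0125), or by 11.4 percent, and was at -0.002 in null clone 2 (95% interval -0.08 to 0.07, limma adjusted p = 0.985). Null clone 2 was 0.17 ± 0.04 above null clone 1 (limma adjusted p = 0.00706).

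Dnmt1, the maintenance methyltransferase, had 76.9 and 69.7 FPKM in null clone 1 and 87.7 and 91.5 FPKM in null clone 2, against 85.5, 78.9, 85.8 and 84.6 FPKM in WT. The 3 groups did not overlap, with null clone 1 lowest and null clone 2 highest. It fell by 0.19 ± 0.05 in null clone 1 (limma adjusted p = 0.0437) and was 0.10 ± 0.05 higher in null clone 2, short of the threshold (limma adjusted p = 0.248). Null clone 2 exceeded null clone 1 by 0.29 ± 0.06 (limma adjusted p = 0.00649).

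The Dnmt1 call in null clone 1 was lost without replicate 2 of null clone 1 (log2 change -0.12, limma adjusted p = 0.245), without either library of null clone 2 (0.0579 and 0.0586), without WT replicate 1, 3 or 4 (0.102, 0.104 and 0.105), with no filter on low values (0.0877), after rescaling the libraries (0.0967) and without trend and robust moderation (0.0808). Of the alternatives run, the Uhrf1 call in null clone 1 was lost only without replicate 2 of null clone 1 (log2 change -0.14, limma adjusted p = 0.0669). Between the clones, Dnmt1 missed the threshold without replicate 2 of null clone 2 (limma adjusted p = 0.0517), and Uhrf1 passed in each alternative run.

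The Uhrf1 to Dnmt1 ratio lay between 1.75 and 2.00 in all 8 libraries. It was 1.89 and 1.99 in null clone 1 and 1.84 and 1.75 in null clone 2, against 1.90, 2.00, 1.87 and 1.92 in WT, so that null clone 1 lay within the WT range and null clone 2 below it. The null libraries together differed from WT by -0.04 on the log2 scale (exact two-sided permutation p = 0.371, 0.643 adjusted over the 3 ratios).

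Replication genes were lower in null clone 1 as well. Of 20 genes listed, 18 were tested, of which 0 rose and 14 fell in null clone 1, where 11.4% of all tested genes fell, with a median log2 change of -0.20 against -0.05 over all genes tested. In null clone 2, 2 rose and 0 fell, where 7.06% of all genes rose, with a median of 0.04 against 0.00. Without replicate 2 of null clone 1, 8 fell in that clone, and the 2 that rose in null clone 2 were 0 without its replicate 2 and 1 without any 1 WT library or with no filter. Pcna, the sliding clamp that also anchors Dnmt1 at the fork, had 177.7 and 180.9 FPKM in null clone 1 and 227.5 and 233.9 FPKM in null clone 2, against 214.0 to 227.4 FPKM in WT. It fell by 0.29 in null clone 1 (limma adjusted p = 0.00328). Rrm2, a subunit of ribonucleotide reductase, had 123.7 and 129.5 FPKM in null clone 1 and 175.0 and 186.1 FPKM in null clone 2, against 155.2 to 172.0 FPKM in WT. The part of proliferation in the Uhrf1 and Dnmt1 values was not tested.

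E2F factors drive genes of DNA synthesis, and CCAAT boxes bind the factor NF-Y, so the promoter windows of this pair were searched for TTTNGCGC, TTTCCCGC and CCAAT on both strands. Capitals mark matches, and the windows are shown because Uhrf1 and Dnmt1 shifted together in null clone 1.
Dnmt1, chr9:20952574-20952873, minus strand: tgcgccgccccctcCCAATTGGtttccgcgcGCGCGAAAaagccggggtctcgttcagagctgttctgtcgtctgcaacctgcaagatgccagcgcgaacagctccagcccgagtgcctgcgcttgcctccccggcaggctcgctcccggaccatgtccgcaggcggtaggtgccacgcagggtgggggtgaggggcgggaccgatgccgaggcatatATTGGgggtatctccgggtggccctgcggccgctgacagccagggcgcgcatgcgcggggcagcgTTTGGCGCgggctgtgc
Uhrf1, chr17:56304063-56304362, plus strand: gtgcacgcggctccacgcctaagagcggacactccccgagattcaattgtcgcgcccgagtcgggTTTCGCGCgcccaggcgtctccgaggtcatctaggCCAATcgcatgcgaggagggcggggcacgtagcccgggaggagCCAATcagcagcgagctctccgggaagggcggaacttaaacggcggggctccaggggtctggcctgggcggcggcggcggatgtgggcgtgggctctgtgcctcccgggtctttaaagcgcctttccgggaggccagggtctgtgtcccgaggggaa
The Dnmt1 gene spans chr9:20907209-20959888 on the minus strand and the Uhrf1 gene chr17:56303321-56323486 on the plus strand in GENCODE M21, and both windows lie at starts inside the span of their gene. The Dnmt1 window holds 2 matches of TTTNGCGC and 3 of CCAAT, of which an adjoining pair overlaps on opposite strands, and the Uhrf1 window holds 1 match of TTTNGCGC and 2 of CCAAT. TTTNGCGC occurs in 1.38% of all RefSeq windows and CCAAT in 37.4%. The shown windows were picked as the richest in CpG of their gene. No share was computed over windows as rich in CpG, so 1.38% is not a matched background for a motif that holds CpG. Over all 16 windows of the 9 genes, TTTNGCGC was found in 2, the shown windows alone, and CCAAT in 6. TTTCCCGC (1.07% of all windows) and the octamer ATTTGCAT (1.74%) were found in 0 of the 16. Both shown windows hold 33 CpG, and the other starts hold 2 and 12 CpG for Dnmt1 and 12 for Uhrf1. The Dnmt1 start with 2 CpG holds 5 matches of CCAAT, and the other Uhrf1 start holds 3. A match is a run of letters and not a shown binding site.

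No Tet gene passed the test in either clone. Tet1, the dioxygenase most active in pluripotent cells, had 10.1 and 6.06 FPKM in null clone 1 and 8.31 and 7.25 FPKM in null clone 2, against 8.72, 8.32, 8.04 and 8.40 FPKM in WT. The null clone 1 libraries lay on either side of WT. The log2 change was -0.08 in null clone 1 (95% interval -0.44 to 0.28, limma adjusted p = 0.756) and -0.10 in null clone 2 (-0.45 to 0.26, limma adjusted p = 0.723).

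Tet3, the form that predominates in neural cells, had 9.28 and 6.85 FPKM in null clone 1 and 10.2 and 9.88 FPKM in null clone 2, against 10.1, 9.58, 9.86 and 9.79 FPKM in WT. Null clone 1 was below all WT libraries and null clone 2 overlapped them. The log2 change was -0.27 in null clone 1 (-0.49 to -0.05, limma adjusted p = 0.0932) and 0.02 in null clone 2 (-0.20 to 0.25, limma adjusted p = 0.897). Tet2, which lacks the CXXC domain found in Tet1 and Tet3, had 2.76 and 2.49 FPKM in null clone 1 and 2.70 and 2.81 FPKM in null clone 2, against 3.23, 2.69, 3.43 and 2.84 FPKM in WT. Its groups overlapped, with log2 changes of -0.16 (-0.37 to 0.06, limma adjusted p = 0.289) and -0.10 (-0.32 to 0.11, limma adjusted p = 0.5).

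Tet1 and Tet3 turned on replicate 2 of null clone 1, the library in which long transcripts read low. Their longest annotated transcripts are 14369 and 10904 bases, and replicate 2 minus replicate 1 of null clone 1 was -0.65 and -0.39 on the log2 scale, against -0.17 and -0.04 between the libraries of null clone 2. With replicate 2 as the only null clone 1 library, both passed against WT (log2 change -0.41 and -0.47, limma adjusted p = 0.0207 and 0.00745). With replicate 1 as the only one, Tet1 was at 0.25 and Tet3 at -0.08, and neither passed. Between the clones Tet1 passed in opposite directions according to which null clone 1 library was left out (0.31 without replicate 1 and -0.34 without replicate 2, limma adjusted p = 0.0356 and 0.031), and Tet3 passed without replicate 1 (0.49, limma adjusted p = 0.00325). The other genes ranged in length from 1822 bases (Dnmt3l) to 9685 bases (Dnmt3a). The same difference between the null clone 1 libraries was -0.273 for Dnmt3a, -0.106 for Tet2 (9179 bases), -0.185 for Dnmt3l and between -0.163 and 0.00 for the other 4. The log2(FPKM + 1) scale understates such differences for low genes such as Tet2 and Dnmt3l. The part of transcript length in these differences was not tested.

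The sum of the Tet genes was 22.2 and 15.4 FPKM in null clone 1 and 21.2 and 19.9 FPKM in null clone 2, against 22.1, 20.6, 21.3 and 21.03 FPKM in WT. The Tet1 to Tet3 ratio was 1.09 and 0.885 in null clone 1 and 0.817 and 0.734 in null clone 2, against 0.815 to 0.869 in WT. Both null clone 1 libraries lay above the WT range of this ratio although their Tet1 levels stood on opposite sides of WT. The ratio does not cancel the fall from replicate 1 to replicate 2 of null clone 1, which was larger for Tet1 than for Tet3. The null libraries together differed by 0.04 on the log2 scale (exact two-sided permutation p = 0.771, 0.771 adjusted over the 3 ratios).

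Tdg, the glycosylase that removes oxidised 5-methylcytosine, had 60.93 and 60.95 FPKM in null clone 1 and 64.7 and 68.3 FPKM in null clone 2, against 62.6, 66.6, 68.7 and 64.2 FPKM in WT. Null clone 1 lay just below the lowest WT library and null clone 2 within the WT range. The log2 change was -0.10 in null clone 1 (95% interval -0.21 to 0.00, limma adjusted p = 0.169) and 0.02 in null clone 2 (-0.09 to 0.13, limma adjusted p = 0.808).

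**Figure D3:**
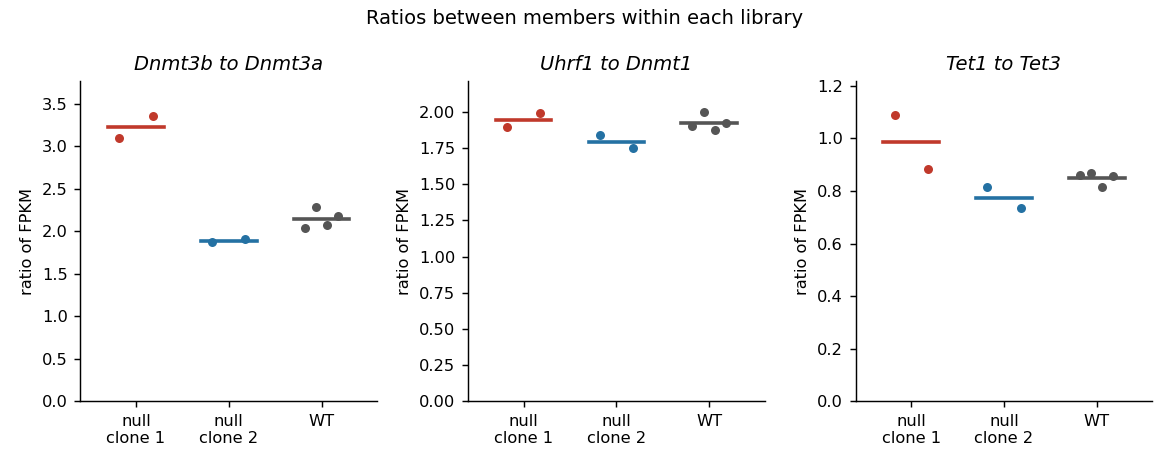
Ratios of FPKM within each library (vertical axes, linear and starting at 0) for Dnmt3b to Dnmt3a, Uhrf1 to Dnmt1 and Tet1 to Tet3 in null clone 1, null clone 2 and WT; points are libraries and bars are group means. The Dnmt3b to Dnmt3a ratio is 3.09 and 3.35 in null clone 1 and at most 2.28 elsewhere.

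Counted over the 9 genes, 2 rose and 2 fell in null clone 1, where 4.16% and 11.4% of all tested genes rose and fell, 15.6% in all. In null clone 2, 0 rose and 2 fell, against 7.06% and 6.96% of all genes, 14.0% in all. At an unadjusted p under 0.05 these were 5 and 3 of the 9, against 32.3% and 30.8% of all genes. In null clone 2 against null clone 1, 2 were higher and 2 lower, against 24.9% and 15.0% of all genes, 39.9% in all, so the share of the 9 that passed is close to the background in that comparison. The median log2 change of the 9 was -0.10 in null clone 1 and -0.10 in null clone 2, against -0.05 and 0.00 over all genes. The comparisons with WT share the WT libraries. The count in null clone 1 was 1 without its replicate 2 and 2 without WT replicate 1, 3 or 4, and the count in null clone 2 was 1 without its replicate 1 and 0 without its replicate 2.

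**Figure D4:**
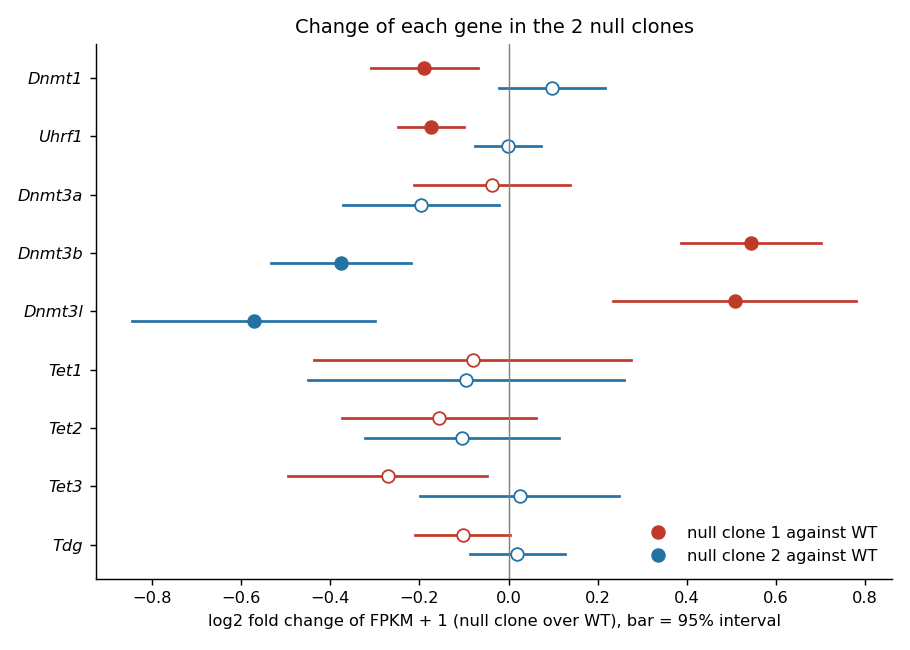
Log2 fold change of FPKM + 1 (horizontal axis) of each gene in null clone 1 and null clone 2 against WT; bars are 95% intervals of the 3-group limma fit and filled points passed an adjusted p of 0.05. Dnmt3b and Dnmt3l pass on opposite sides of 0 in the clones (0.54 and -0.38, 0.51 and -0.57), and Dnmt1 and Uhrf1 pass in null clone 1 only.

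With the clones pooled as the study's own contrast, 0 of the 9 genes passed in limma for null against WT, where 0.0551% of all genes passed, 0.00689% higher and 0.0482% lower. At an unadjusted p under 0.05 there were 0 of the 9, against 4.73% of all genes. Dnmt3b averaged 84.0 ± 30.8 FPKM in null and 75.3 ± 4.58 FPKM in WT (SD, n = 4 each), a log2 change of 0.08 with a 95% interval of -0.49 to 0.65. Dnmt3l averaged 1.31 ± 0.970 FPKM in null and 1.21 ± 0.254 FPKM in WT, a change of -0.03 (-0.69 to 0.63). Pooling placed the divergent clones in 1 group, and the SD of Dnmt3b was wider in null than in WT. The narrowest interval was that of Tdg, -0.16 to 0.08, and Uhrf1 lay at -0.09 (-0.21 to 0.03). The authors' deposited table gives folds of null over WT mean reads between 0.937 (Tet3) and 1.15 (Dnmt3b), with p-values of an unstated test between 0.285 (Uhrf1) and 0.965 (Dnmt3a). In the authors' deposited table the mean reads behind these folds are 9897.71 in null and 8647.9 in WT for Dnmt3b, and 65.2 in null and 59.6 in WT for Dnmt3l.

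Ranked by mean FPKM within a line, Uhrf1 was highest and Dnmt3l lowest in all 3 lines. In null clone 1 the order was Uhrf1, Dnmt3b, Dnmt1, Tdg, Dnmt3a, Tet1, Tet3, Tet2 and Dnmt3l, with only Tet1 and Tet3 overlapping. In null clone 2 Dnmt3b stood below Tdg, and the order was Uhrf1, Dnmt1, Tdg, Dnmt3b, Dnmt3a, Tet3, Tet1, Tet2 and Dnmt3l with no overlap between neighbours. WT kept Dnmt1 and Dnmt3b, whose ranges overlapped, between Uhrf1 and Tdg, and then followed null clone 2. The summed level of the catalytic methyltransferases Dnmt1, Dnmt3a and Dnmt3b was 231.1 and 204.7 FPKM in null clone 1 and 180.4 and 175.4 FPKM in null clone 2, against 190.4 to 196.2 FPKM in WT.

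The genes most like 3 of the 9 in log2(FPKM + 1) across the 8 libraries were listed as a description, since the libraries fall into 3 lines and each r largely restates the line means. For Dnmt3b they were Enho (r = 0.998), the Polycomb subunit gene Cbx7 (0.995), the mitochondrial 2-oxoglutarate dehydrogenase-like gene Ogdhl (0.995) and the tyrosine kinase gene Tnk1 (0.995). Cbx7 had 22.3 and 19.5 FPKM in null clone 1 and 9.48 and 8.13 FPKM in null clone 2, against 11.1 to 14.8 FPKM in WT. For Dnmt3l they were the apoptosome gene Apaf1 (0.995), the ciliary transport gene Tulp3 (0.994), the rhomboid pseudoprotease gene Rhbdf2 (0.993) and the thiamine transporter gene Slc19a2 (0.993). For Uhrf1 they were Twsg1 (0.993), a modulator of BMP ligands, the histone chaperone gene Nasp (0.992), the ubiquitin ligase gene Sh3rf1 (0.992) and the bromodomain ATPase gene Atad2 (0.991).

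Some partners of the methyltransferases fell in null clone 1. Of 19 tested partners and recruiters, 0 rose and 5 fell in null clone 1 (Pcna, Cdca7l, Nsd2, Hells and Suv39h2), and 0 rose and 1 fell in null clone 2 (Cdca7), with medians of -0.09 and 0.07. The shares of all genes that fell were 11.4% and 6.96%. Compared with null clone 1, 9 were higher and 2 lower in null clone 2, against 24.9% and 15.0% of all genes, and without replicate 2 of null clone 2 these were 4 and 0. Cdca7, the zinc finger partner of the remodeller Hells, had 129.1 and 120.7 FPKM in null clone 1 and 111.0 and 107.1 FPKM in null clone 2, against 122.1 to 127.8 FPKM in WT, and fell by 0.19 in null clone 2 (limma adjusted p = 0.0182, but 0.199 without replicate 2 of that clone and 0.0528 without WT replicate 4). Nsd2, which writes H3K36 methylation read by Dnmt3a, fell by 0.23 in null clone 1 (limma adjusted p = 0.0302). That call was lost without either library of null clone 1. Without WT replicate 1, 3 or 4 it was lost too (limma adjusted p = 0.0698, 0.078 and 0.0794). The same held with no filter (limma adjusted p = 0.0681), rescaled libraries (0.0859) or plain moderation (0.0622). The count of 5 was 1 without replicate 2 of null clone 1, and 2 without WT replicate 1, 3 or 4, with no filter, with rescaled libraries or with plain moderation.

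Of 10 tested genes listed as readers of methyl-CpG, 0 rose and 2 fell in null clone 1, where 11.4% of all genes fell. The 2 were Mbd5, named for a methyl-CpG-binding domain, and the Kaiso gene Zbtb33. Binding of methyl-CpG was not shown here for each listed gene. In null clone 2, 0 passed by limma and 3 had an unadjusted p under 0.05, close to the 30.8% of all genes. Without replicate 2 of null clone 1, or WT replicate 1, 3 or 4, 0 readers fell in null clone 1, and 1 fell with no filter or plain moderation, and the limma adjusted p over all alternatives reached 0.0897 for Mbd5 and 0.154 for Zbtb33. Of 9 tested imprint keepers 0 passed in either clone by limma, with 2 and 1 at an unadjusted p under 0.05, against 32.3% and 30.8% of all genes. Without replicate 1 of null clone 1, 5 imprint keepers fell in that clone, and 1 fell with a pseudocount of 0.1 or plain moderation.

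Partners of the demethylating enzymes passed in both directions in each clone. Of 18 tested TET partners and base excision repair genes, 1 rose (Gadd45g) and 5 fell (Apex1, Cxxc5, Idh2, Parp1 and Ung) in null clone 1, and 2 rose (Apex1 and Cxxc5) and 4 fell (Idh1, Idh2, Neil2 and Neil3) in null clone 2. Of all genes, 15.6% and 14.0% passed in either direction in these comparisons. Apex1, the endonuclease that cuts the abasic site left by Tdg, had 72.8 and 70.6 FPKM in null clone 1 and 97.9 and 99.1 FPKM in null clone 2, against 86.8 to 91.2 FPKM in WT. It fell by 0.30 in null clone 1 (limma adjusted p = 0.00344) and rose by 0.15 in null clone 2 (limma adjusted p = 0.0274). The fall held in every alternative run, and the rise was lost without either library of null clone 2 or any 1 WT library, or with plain moderation (0.0525 to 0.236). Cxxc5, a CXXC zinc finger gene, had 7.96 and 8.13 FPKM in null clone 1 and 17.98 and 22.5 FPKM in null clone 2, against 10.1 to 13.01 FPKM in WT, and rose by 0.76 in null clone 2 (limma adjusted p = 0.00623, and 0.0689 without replicate 2 of that clone).

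Gadd45g, a stress response gene tied to active demethylation, rose by 0.78 in null clone 1 (limma adjusted p = 0.00427). Idh1, whose cytosolic enzyme makes the 2-oxoglutarate that Tet enzymes consume, fell by 0.42 in null clone 2 (limma adjusted p = 0.00862, and 0.0929 without replicate 2 of that clone), and its mitochondrial relative Idh2 fell by 0.18 in null clone 1 (limma adjusted p = 0.0152, 0.0626 without replicate 2 of that clone and 0.0552 with rescaled libraries). The Gadd45g call held in every alternative run. The 5 that fell in null clone 1 were 1 without its replicate 2, 2 without WT replicate 1, 3 or 4, with no filter or with rescaled libraries, and 3 with plain moderation, and the 1 that rose was 2 with rescaled libraries or without either library of null clone 2. The 4 that fell in null clone 2 were 0 without its replicate 2, 2 without WT replicate 1 or 3 and 1 without WT replicate 2 or 4 or with no filter. The 2 that rose there were 0 without its replicate 2 and 1 without its replicate 1 or any 1 WT library or with plain moderation.

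The S-adenosylmethionine cycle supplies the methyl donor. Of 13 tested genes, 0 rose and 2 fell (Amd1 and Mat2a) in null clone 1, and 2 rose (Mat2a and Shmt1) and 1 fell (Ahcyl1) in null clone 2. Of all genes, 15.6% and 14.0% passed in either direction. The 2 that fell in null clone 1 were 0 with rescaled libraries, without replicate 2 of null clone 1 or without WT replicate 1, 3 or 4, and 1 with no filter or plain moderation. The Ahcyl1 call was lost with no filter, with plain moderation, without either library of null clone 2 and without any 1 WT library (limma adjusted p = 0.0726 to 0.325). Mat2a, which makes S-adenosylmethionine, had 47.9 and 46.2 FPKM in null clone 1 and 77.1 and 90.5 FPKM in null clone 2, against 69.3, 53.3, 64.8 and 64.4 FPKM in WT. It fell by 0.41 in null clone 1 (limma adjusted p = 0.0375) and rose by 0.41 in null clone 2 (limma adjusted p = 0.0396). The fall was lost without either library of null clone 1 or WT replicate 1, 3 or 4 (limma adjusted p = 0.0753 to 0.185), with no filter (0.0749), rescaled libraries (0.0772) or plain moderation (0.0618). The rise was lost without replicate 2 of null clone 2, either library of null clone 1 or WT replicate 3 or 4 (limma adjusted p = 0.0592 to 0.319), with no filter (0.0803) or plain moderation (0.0628). Shmt1, the cytosolic serine hydroxymethyltransferase, rose by 0.41 in null clone 2 (limma adjusted p = 0.0126, and 0.153 without replicate 2 of that clone).

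Most of the listed germline genes, known to be held silent by DNA methylation in somatic cells, stayed low. Of 17 germline genes 15 did not reach a mean of 1 FPKM, and their highest value in any library was 1.08 FPKM. The other 2 were tested. They summed to 12.97 and 11.9 FPKM in null clone 1, of which Sycp3 made up 9.12 and 7.65. In null clone 2 they summed to 5.639 and 6.579 FPKM, of which Sycp3 made up 1.60 and 1.38. Of these 2, 1 passed in neither clone against WT and is not described further. With no filter on low values, 2 germline genes rose in null clone 1. Sycp3, a component of the synaptonemal complex, was the tested gene that passed. It had 9.12 and 7.65 FPKM in null clone 1 and 1.60 and 1.38 FPKM in null clone 2, against 2.75, 3.95, 2.45 and 2.87 FPKM in WT, so it was highest where Dnmt3b was highest. It rose by 1.24 in null clone 1 (limma adjusted p = 0.00319). In null clone 2 it fell by 0.67 (limma adjusted p = 0.0211, but 0.203 without replicate 2 of that clone, 0.0516 without WT replicate 4 and 0.0532 with no filter).

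Of 35 tested imprinted genes, whose allele-specific marks Uhrf1 and Dnmt1 copy, 10 rose and 14 fell in null clone 1 and 13 rose and 3 fell (H13, Igf2 and Sgce) in null clone 2. Of all genes, 4.16% rose and 11.4% fell in null clone 1, and 7.06% rose and 6.96% fell in null clone 2. Grb10, an adaptor that restrains growth factor signalling, had 14.6 and 9.89 FPKM in null clone 1 and 86.3 and 79.4 FPKM in null clone 2, against 75.6 to 77.9 FPKM in WT, a fall of 2.57 in null clone 1 (limma adjusted p = 0.00011). Without replicate 2 of null clone 1, 5 rose and 5 fell in that clone, and without replicate 2 of null clone 2, 5 rose in that clone, and without WT replicate 4 or with no filter, 1 fell there. Nnat was higher in both clones, at 226.4 and 231.0 FPKM in null clone 1 and 158.8 and 170.9 FPKM in null clone 2, against 44.3 to 47.4 FPKM in WT. With the clones pooled, Nnat rose and Sgce fell (limma adjusted p = 0.000645 and 0.034), and the Nnat call held in every alternative run. The Sgce call was lost on leaving out any 1 of the 8 libraries (limma adjusted p = 0.0502 to 0.195) and with no filter (0.0501). It was also lost with an estimated correlation between libraries of a line (limma adjusted p = 1.0 with WT as 1 line and 0.123 with WT as separate lines). In that pooled contrast 0 genes of the readers, methyltransferase partners, imprint keepers, TET partners, S-adenosylmethionine cycle, germline and replication lists passed by limma, and at an unadjusted p under 0.05 there were 3 of 18 TET partners, 2 of 18 replication genes and 0 of the others, against 4.73% of all genes.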

How the data were processed

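The authors' deposited table gives FPKM per library for 4 null and 4 WT libraries, with the authors' mean reads per genotype (a signal whose scaling between libraries is not stated), a fold (ratio of null to WT mean reads) and an unadjusted p-value of unstated test, per the file headers. The submitters' processing notes name TopHat2, Cufflinks, SAMtools, FastQC, DESeq2, GRCm38 and mm10, with no version or role. Strand use in counting is not given in these sources. The table holds no per-library counts, so depth per library is unknown and limma replaced the count model named in the design. Mean reads summed to 26864352 in null and 26693189 in WT, and the spacing of low FPKM values put the libraries at 0.985 to 1.20 times the depth of WT replicate 1. The null columns could be placed by clone only.

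Limma 3.58.1 (R 4.3.3; trend and robust moderation) was run on log2(FPKM + 1) for 14521 genes averaging 1 FPKM or more, with Benjamini-Hochberg adjustment over all of them and a threshold of 0.05. The clone comparisons came from 1 fit of 3 groups, and null against WT from a fit of 2 groups. All 9 genes passed the filter. The 3 ratios were compared by exact two-sided permutation. Scripts were tested on simulated data. Alternatives were another pseudocount (0.1), no filter, rescaled libraries, plain moderation, each library left out, and libraries of a line treated as correlated.

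The 9 genes and the lists were chosen with earlier results of these data known. From each list up to 3 genes past the threshold in each comparison with WT were named by smallest adjusted p, not all of which are described, together with list members counted. The genes of likeness are the 4 of highest Pearson r for the 3 of the 9 with the largest F. Cdt1 and Gins2 of the replication list and Tubb3 of the neuron list were not analysed here, and 1 other gene of the replication list is counted but not reported here. Promoter windows are from RefSeq (GRCm38.p6, all 9 genes matched), and transcript lengths from GENCODE M21.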

Additional observations from a re-analysis of the deposited data

Results flagged for a closer look

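By limma on log2(FPKM + 1), null clone 2 differed from null clone 1 in 4 of the 9 genes. This share is close to the 39.9% of all tested genes that passed in that comparison. The list genes given below had been picked for passing against WT in at least 1 clone. The differences, null clone 2 minus null clone 1, were 0.286 for Dnmt1, 0.173 for Uhrf1, -0.919 for Dnmt3b and -1.08 for Dnmt3l. Among the methyltransferase partners and recruiters the same difference was 0.362 for Pcna, 0.297 for Cdca7l, 0.408 for Nsd2 and -0.193 for Cdca7. Among the listed readers it was 0.461 for Mbd5 and 0.585 for Zbtb33. Among the TET partners and repair genes it was 0.452 for Apex1, -0.62 for Gadd45g, 1.23 for Cxxc5 and -0.418 for Idh1. In the S-adenosylmethionine cycle it was 0.237 for Amd1, 0.816 for Mat2a, 0.641 for Shmt1 and -0.218 for Ahcyl1. The germline gene Sycp3 was at -1.91. Of the imprinted genes, Nnat was at -0.471, Grb10 at 2.68, Meg3 at -0.612, Ndn at 0.908 and Snrpn at 0.318. Of the replication genes, Rrm2 was at 0.508, Cdc6 at 0.431 and Tyms at 0.822.

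In 3 genes 1 WT library stood far from the other 3, with a gap to its neighbour, as a share of the range of the 4 libraries, above Dixon's 95% critical value, which chance gives in about 1 of 20 groups. WT replicate 2 was high for Dnmt3l at 1.59 FPKM (gap 0.892 of the range) and low for Ndn at 46.4 FPKM (0.866). WT replicate 3 was high for Cdca7l at 34.1 FPKM (0.946).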

How the results depend on the processing

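Over the alternatives other than leaving out a library, 295 single-gene results kept their direction and side of the threshold, 23 fell short of it and 2 changed sign: after rescaling the libraries Dnmt3a in null clone 1 was at 0.009 and Uhrf1 in null clone 2 at 0.008. Over all genes, dropping the filter gave 1501 calls in null clone 1 and 1160 in null clone 2. Null against WT gave 5 calls with rescaled libraries, 3 with libraries of a line correlated and WT as 1 line, 4 with WT as separate lines, and 106 when the 3-group fit averaged both clones. No paired analysis was possible because null columns carry numbers of their clone and none of the sample titles.

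With each library left out in turn, 464 single-gene results were kept, 78 fell short, 9 newly passed and 17 changed sign. Calls over all genes ranged from 438 to 3089 in null clone 1, 172 to 2425 in null clone 2, 3095 to 5902 between the clones and 3 to 8 in null against WT, and those among the 9 genes from 1 to 5, 0 to 3, 3 to 6 and 0 to 0. The log2 ratios ranged from 0.057 to 0.337 (Dnmt3b to Dnmt3a), -0.074 to -0.011 (Uhrf1 to Dnmt1) and -0.071 to 0.119 (Tet1 to Tet3). Changes that crossed 0 ranged from -0.174 to 0.099 for Dnmt3a and -0.407 to 0.246 for Tet1 in null clone 1, -0.011 to 0.004 for Uhrf1 and -0.019 to 0.06 for Tdg in null clone 2, and -0.342 to 0.312 for Tet1 and -0.001 to 0.105 for Tet2 between the clones. In null against WT they ranged from -0.103 to 0.025 for Dnmt1, -0.097 to 0.259 for Dnmt3b, -0.243 to 0.152 for Dnmt3l and -0.199 to 0.019 for Tet1. The cause of these shifts was not tested. A clone left with 1 library was assumed to vary like the other groups. Unknown depth per library leaves the counting error of low genes such as Dnmt3l unknown.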

Other observations

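Among the WT libraries, replicate 2 held the highest value of Dnmt3b and Dnmt3l. It also held that of all 3 tested genes of the naive pluripotency list and of all 5 tested epithelial genes. It held the lowest value of 4 of the 9 genes, among them Dnmt1 and Uhrf1, and of 11 of the 18 replication genes. WT replicate 3 held the lowest value of 3 of the 9. No share over all tested genes was computed for these places, so the counts are a description only.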
